A study of Ciona robusta with 6 samples.

Results

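In anterior neural plate (ANP) cells of the tunicate *Ciona robusta*, 166 of 16526 genes were expressed without added *Lhx3/4* and stood at least 2 times higher in every library from cells that misexpressed it. They were chosen by their measured levels, and the 10 with a paired name include genes for cell surface proteins, enzymes and nuclear factors. *Lhx3/4* encodes a LIM homeodomain transcription factor, a protein that binds AT-rich DNA and acts together with partner proteins. In *C. robusta* embryos it is expressed early in vegetal lineages, and it has been studied as a factor that helps FGF signaling specify the cardiopharyngeal progenitors (CPPs), which form heart and pharyngeal muscle. The ANP, from which anterior brain and sensory tissue arise, also receives FGF signals. Placing *Lhx3/4* in the ANP asks which genes it can move there.

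Each of the 6 mRNA libraries came from GFP-positive ANP cells collected by FACS. The 3 *Lhx3/4* libraries were from embryos electroporated with both *Dmrt>GFP* and *Dmrt>Lhx3/4*, and the 3 control libraries were from embryos given *Dmrt>GFP* alone. All embryos were of wild-type genotype, grew at 18°C and carried *Dmrt>GFP*, so that the *Dmrt* enhancer, active in the ANP lineage, chose the sorted cells and drove the factor. Electroporated plasmids reach cells unevenly, and the GFP gate does not select for the *Lhx3/4* plasmid itself. The labels call the 3 libraries of each group biological replicates.

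Genes were chosen by level in CPM, the reads of a gene for every 1000000 reads assigned to genes in that library. A member had a mean above 0.3 CPM over the control libraries and at least 2 CPM in every *Lhx3/4* library. Its lowest *Lhx3/4* value was also at least 2 times its highest control value. *Lhx3/4* itself and 4 transcription factors, *Foxf*, *Irxb*, *Nkx6* and *Hand.r*, were left out. Of 16526 genes in the count tables, 166 were members. Both level conditions were met by 10148 genes, and the ratio of 2 by 169 of these (1.67%), of which 3 were among the 5 genes left out. The rule used the difference between *Lhx3/4* and control cells, so the levels, folds and gaps below describe the genes it chose, and no test is given for them. CPM is not corrected for gene length, so values are compared between libraries and not between genes.

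The tables assigned 52637768 to 71200276 reads to genes in the *Lhx3/4* libraries and 58295081 to 68937810 in the controls. The misexpressed gene, *Lhx3/4* (KH.S215.4), stood at 681, 608 and 553 CPM in *Lhx3/4* libraries 1, 2 and 3, against 34.7, 51.3 and 29.2 CPM in control libraries 1, 2 and 3. Every library thus fitted its label, although reads of the transgene and of the native gene cannot be told apart. The 4 ANP markers examined, *Onecut*, *Six3/6*, *Tyrp-1* and the homolog of *MSX2*, lay between 1.61 and 58.6 CPM in *Lhx3/4* libraries, against 233 to 592 CPM in control libraries. These 4 markers thus stood at a high level only in the control cells. The study names *Onecut*, *Six3/6* and *Tyrp-1* among its most lowered ANP genes in these same data, so their fall was known beforehand. Its text does not name *MSX2* as an ANP marker. Homolog names come almost only from genes the study listed as changed, so the fall of this homolog cannot be taken as independent either. Of the 1000 genes highest in control cells, edgeR called 90 lower (9.0%, against 2.92% of all tested genes). It called 5 of them higher (0.5%, against 1.85%) and 905 neither. In bulk libraries a smaller share of cells of a type and less RNA per cell cannot be told apart.

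The members ran over a wide range of control levels. Their mean control level had a lowest value of 0.304 CPM, a median of 2.20 and a highest value of 147 CPM, while their mean level in *Lhx3/4* libraries had a lowest value of 2.69 CPM, a median of 18.4 and a highest value of 735 CPM. Most members were therefore scarce in control ANP cells. None belonged to the 1000 genes of highest expression in control cells that the study listed, whose lowest control mean was 211 CPM. Of those genes 999 met the level conditions. Members were 1.64% of all genes that met them, but only 0.325% of those with a control mean above 20 CPM. At that share such a list would hold very few members, so their absence is not a result about the list. Reads of all members together made up 0.860, 0.949 and 0.961% of gene reads in *Lhx3/4* libraries 1, 2 and 3, against 0.153, 0.180 and 0.164% in control libraries 1, 2 and 3. The 5 most abundant members supplied 28.7% of the members' reads in the *Lhx3/4* libraries.

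**Figure D1:**
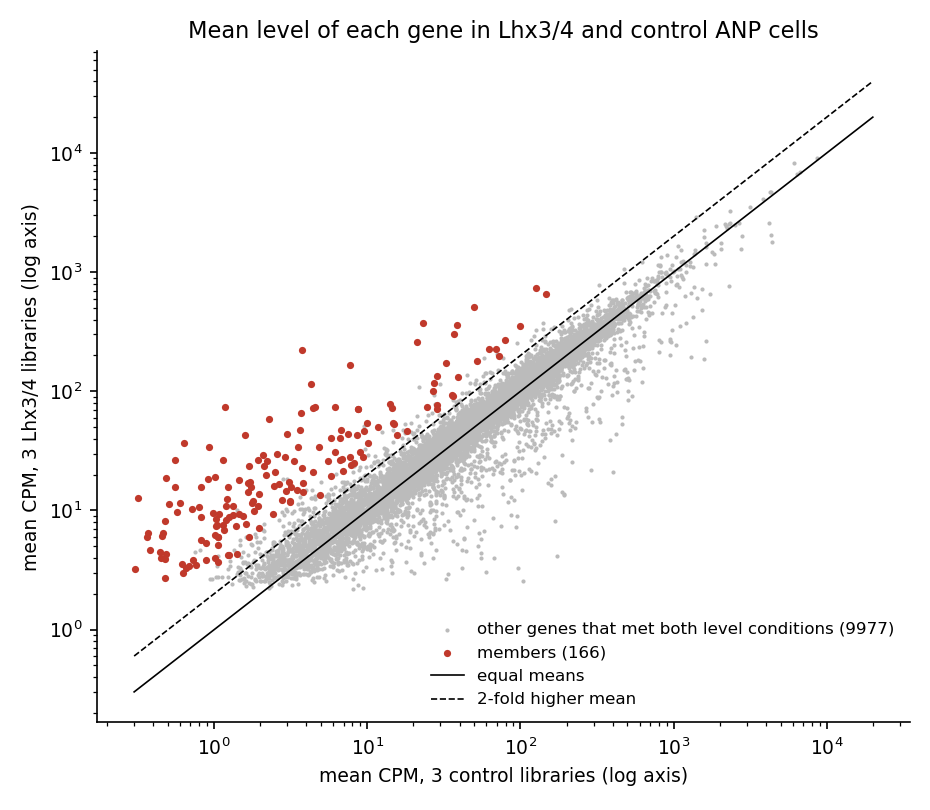
Mean CPM in the 3 *Lhx3/4* libraries (vertical, log axis) against mean CPM in the 3 control libraries (horizontal, log axis) for each gene that met both level conditions, with the 166 members in red. The members lie above the dashed line of a 2-fold higher mean, between control means of 0.304 and 147 CPM, and 9 of them have a control mean above 44.1 CPM, the median of all genes that met both conditions.

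The fold of the group means, *Lhx3/4* over control, had a lowest value of 2.49, a median of 6.44 and a highest value of 63.1 among members, with quartiles of 4.32 and 11.5. As log2 values the median was 2.69, whereas the median over all 10148 genes that met the level conditions was 0.096. The fold was at least 10 in 50 members and at least 50 in 3. The gap between the groups, taken as the lowest *Lhx3/4* value over the highest control value, had a median of 3.56 and a highest value of 35.9. It was at least 10 in 20 members, at least 5 in 50, and under 3 in 70.

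Folds were larger among members of low control level, and part of this pattern follows from the rule. With a floor of 2 CPM in every *Lhx3/4* library, a gene under 1 CPM in control cells had to be higher to enter at all, and 36 of the 40 genes with a control mean of 0.3 to 1 CPM that met the level conditions were members. Their median fold was 12.8. Above a control mean of 1 CPM the ratio of 2 alone asks for more than 2 CPM in every *Lhx3/4* library. There the floor no longer decides membership, although it still limits which genes are counted. From 1 to 5 CPM, 77 of 782 genes were members, with a median fold of 6.94. From 5 to 20 CPM, 30 of 2256 genes were members, with a median fold of 4.51. Above 20 CPM, 23 of 7070 genes (0.325%) were members, with a median fold of 3.59.

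**Figure D2:**
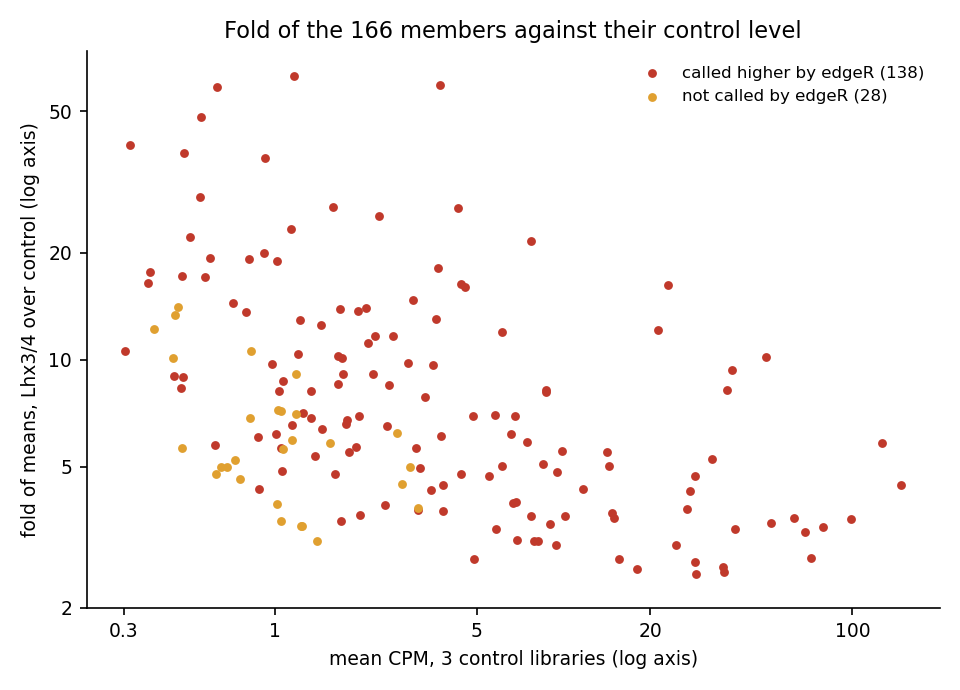
Fold of the group means, *Lhx3/4* over control (vertical, log axis), against mean control CPM (horizontal, log axis) for each of the 166 members, coloured by whether edgeR called the gene higher. Folds run from 2.49 to 63.1, and the 28 members not called (yellow) all have control means of 3.14 CPM or less.

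Read counts set how well the control level of a member was known. Summed over the 3 control libraries, a member had at least 57 reads and a median of 412.5. In 78 members every control library held at least 100 reads, while 12 members had a control library with fewer than 10 and 1 of them, KH.C1.566, had no read in control library 3. No member had fewer than 126 reads in any *Lhx3/4* library. CPM values of low control members therefore carry more counting error on the control side than on the *Lhx3/4* side.

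Across all genes, edgeR's quasi-likelihood test called 252 of 13641 genes higher in *Lhx3/4* cells (1.85%), taking genes with an adjusted p below 0.05 whose log2 fold change was 0.58 or more. All 166 members were tested, and 138 were called higher, which says only that the rule and the test used the same contrast. Members made up 54.8% of the genes called higher. With the replicate number as a block, 164 members were called, against 4.72% of all genes tested. The block pairs libraries of the same number, a pairing read from these same data. DESeq2 also called 164, against 3.52% of all genes it tested. In 13.9% of the tested genes all 3 *Lhx3/4* values lay above all 3 control values, which holds for every member by the rule.

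The 28 members that edgeR did not call were scarcer and more uneven in control cells than the 138 it called. Their median control mean was 1.04 CPM, against 3.17 CPM for the called members, and their highest control library exceeded the lowest by a median of 4.55 times, against 1.74 times. The median fold was 5.62 in members not called and 6.80 in members called. With the replicate block 26 of the 28 were called. KH.C14.251 and KH.C8.352 were called by none of the 3 fits and are named here after their values were seen. KH.C14.251 had 7.85, 6.75 and 12.6 CPM in *Lhx3/4* libraries 1, 2 and 3, against 1.48, 3.15 and 0.029 CPM in control libraries 1, 2 and 3. This gene was thus nearly absent from control library 3. KH.C8.352 had 3.02, 2.30 and 3.67 CPM in *Lhx3/4* libraries 1, 2 and 3, against 1.06, 0.72 and 0.10 CPM in control libraries 1, 2 and 3, again with its lowest control value in library 3.

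The widest gaps between the groups were found in genes for which no homolog name was at hand. KH.C5.635 had 60.9, 74.5 and 85.5 CPM in *Lhx3/4* libraries 1, 2 and 3, against 1.70, 1.17 and 0.64 CPM in control libraries 1, 2 and 3, a fold of means of 63.1. Its lowest *Lhx3/4* value was 35.9 times its highest control value, the widest gap of all members. KH.C2.932 had 190, 218 and 259 CPM in *Lhx3/4* libraries 1, 2 and 3, against 2.23, 3.18 and 5.80 CPM in control libraries 1, 2 and 3, a fold of means of 59.5. In this gene both groups were lowest in library 1 and highest in library 3. KH.C11.631 had 49.7, 34.6 and 26.8 CPM in *Lhx3/4* libraries 1, 2 and 3, against 0.82, 0.73 and 0.33 CPM in control libraries 1, 2 and 3, a fold of 58.7, with both groups highest in library 1.

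KH.C3.252 was the most even of these 10 genes, with 17.7, 19.5 and 18.6 CPM in *Lhx3/4* libraries 1, 2 and 3, against 0.45, 0.43 and 0.58 CPM in control libraries 1, 2 and 3. KH.S1051.1 had 130.6, 109.6 and 104.6 CPM in *Lhx3/4* libraries 1, 2 and 3, against 4.72, 5.06 and 3.12 CPM in control libraries 1, 2 and 3. Both kept a gap of more than 20 times between the groups. KH.C4.247 averaged 42.9 ± 8.0 CPM in *Lhx3/4* libraries and 1.59 ± 0.26 CPM in control libraries (SD, n = 3 each), and KH.C5.451 averaged 58.1 ± 5.6 CPM in *Lhx3/4* libraries and 2.29 ± 1.28 CPM in control libraries (SD, n = 3 each). The last 3 of the 10 were below 1 CPM on average in control cells. KH.C14.378 averaged 26.7 ± 6.1 CPM in *Lhx3/4* libraries and 0.55 ± 0.42 CPM in controls, KH.L10.9 averaged 15.8 ± 3.9 CPM in *Lhx3/4* libraries and 0.55 ± 0.25 CPM in controls, and KH.C2.14 averaged 12.7 ± 3.2 CPM in *Lhx3/4* libraries and 0.32 ± 0.26 CPM in controls (SD, n = 3 each). Across these 10 genes no control value exceeded 5.80 CPM, and the fold of means was at least 25.3.

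**Figure D3:**
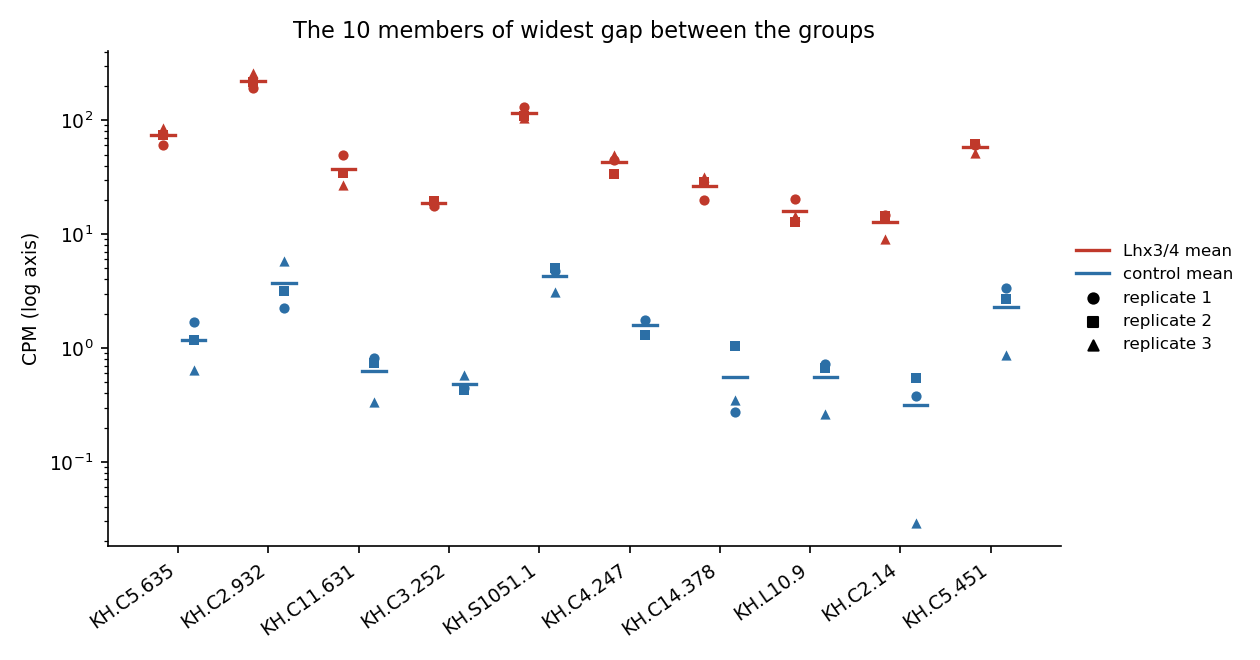
CPM (vertical, log axis) of the 10 members of widest gap between the groups in each library, with *Lhx3/4* libraries in red to the left of control libraries in blue, marker shapes for replicate numbers and bars for group means. Every control value lies at or below 5.80 CPM, and the groups stand far apart in each gene.

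Members that were already abundant in control cells had smaller folds. KH.C11.215 had the highest control level, with 596, 663 and 702 CPM in *Lhx3/4* libraries 1, 2 and 3, against 124, 170 and 148 CPM in control libraries 1, 2 and 3, a fold of 4.44. KH.C11.628 had 590, 670 and 946 CPM in *Lhx3/4* libraries 1, 2 and 3, against 94.7, 118 and 166 CPM in control libraries 1, 2 and 3, a fold of 5.82. In KH.C11.628 both groups ran in the same order over the replicate numbers, so that the folds within a number were 6.23, 5.66 and 5.70. KH.L102.7 stood out among the abundant members, with 517, 393 and 622 CPM in *Lhx3/4* libraries 1, 2 and 3, against 47.4, 26.9 and 76.0 CPM in control libraries 1, 2 and 3. Its fold of means was 10.2, and both groups were lowest in library 2 and highest in library 3.

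The other 7 of the 10 members with the highest control level all had folds under 4. KH.C8.724 averaged 352 ± 84 CPM in *Lhx3/4* libraries and 99.0 ± 25.1 CPM in controls, and KH.C8.87 averaged 199 ± 23 CPM in *Lhx3/4* libraries and 72.0 ± 9.2 CPM in controls. The fold was 2.77 in KH.C8.87, the smallest of the 10. KH.C9.608 averaged 224 ± 34 CPM in *Lhx3/4* libraries and 68.8 ± 7.2 CPM in controls, KH.C12.408 averaged 225 ± 67 CPM in *Lhx3/4* libraries and 62.6 ± 13.1 CPM in controls, and KH.S1155.2 averaged 181 ± 20 CPM in *Lhx3/4* libraries and 52.1 ± 4.9 CPM in controls. KH.C12.243 averaged 131 ± 34 CPM in *Lhx3/4* libraries and 39.3 ± 4.4 CPM in controls (SD, n = 3 each throughout). The seventh, KH.C3.443, is described with the transcription factors.

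At the threshold the rule separates genes with much the same values. The 5 members just inside the ratio of 2 were KH.C8.724, KH.C8.17, KH.L37.72, KH.C4.150 and KH.L92.4, with gaps of 2.02, 2.04, 2.04, 2.07 and 2.07 and folds of means between 2.75 and 3.62. Apart from the genes left out, of which *Irxb* had a gap of 1.99, the 5 genes just outside it were KH.L142.15, KH.C10.5, KH.C8.333, KH.C9.157 and KH.C1.175, with gaps of 1.97, 1.97, 1.96, 1.96 and 1.96 and folds between 2.45 and 3.01. KH.C1.175, for example, had 191, 216 and 206 CPM in *Lhx3/4* libraries 1, 2 and 3, against 60.7, 97.3 and 52.1 CPM in control libraries 1, 2 and 3, and was kept out by control library 2 alone.

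Human homolog names could be paired with 10 of the 166 members. Such names come almost only from genes that the study listed as changed, so the 10 are not a sample of the members. Their folds of means ran from 4.32 to 16.3. Roles given for them are those of the human proteins.

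Among genes for secreted and cell surface proteins, the homolog of *ENPP3* (KH.C2.514), a membrane-bound ectoenzyme that cleaves extracellular nucleotides, had 233, 655 and 237 CPM in *Lhx3/4* libraries 1, 2 and 3, against 11.8, 39.3 and 18.1 CPM in control libraries 1, 2 and 3. Library 2 was far above the others in both groups, while the folds within a replicate number, 19.8, 16.7 and 13.1 for numbers 1, 2 and 3, varied much less than the levels. A second model with the same homolog name, KH.C2.158, failed the level conditions, with 1.71, 4.30 and 2.05 CPM in *Lhx3/4* libraries 1, 2 and 3, against 0, 0.128 and 0 CPM in control libraries 1, 2 and 3. Its library 2 was highest as well. Whether the models share sequence or reads was not tested, so the values of both are held as uncertain.

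The homolog of *MRC1* (KH.C9.615), a mannose receptor that takes up glycoproteins, had 3.61, 3.86 and 4.55 CPM in *Lhx3/4* libraries 1, 2 and 3, against 0.65, 0.38 and 0.30 CPM in control libraries 1, 2 and 3. It was a scarce transcript in both groups, with 83 control reads in all. The homolog of *ZAN* (KH.C6.215), zonadhesin, an adhesion protein of the sperm surface, had 33.4, 50.1 and 38.8 CPM in *Lhx3/4* libraries 1, 2 and 3, against 7.65, 7.28 and 4.82 CPM in control libraries 1, 2 and 3. Its groups were separated by 4.36 times.

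A tubulin ligase relative and a calmodulin relative were also members. The homolog of *TTLL12* (KH.L108.33), of the tubulin tyrosine ligase family, had 9.21, 16.1 and 7.16 CPM in *Lhx3/4* libraries 1, 2 and 3, against 1.32, 1.95 and 0.29 CPM in control libraries 1, 2 and 3. The homolog of *CALML3* (KH.C11.487), a calmodulin-like calcium-binding protein, had 18.9, 12.9 and 15.5 CPM in *Lhx3/4* libraries 1, 2 and 3, against 3.60, 4.25 and 1.73 CPM in control libraries 1, 2 and 3. In *TTLL12* library 2 was highest in both groups, whereas in *CALML3* library 2 was lowest among *Lhx3/4* samples and highest among controls.

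Metabolic genes were represented by 2 mitochondrial or sulfur-handling enzymes. The homolog of *PRODH2* (KH.C2.99), a dehydrogenase of hydroxyproline breakdown, had 85.2, 62.3 and 64.0 CPM in *Lhx3/4* libraries 1, 2 and 3, against 9.81, 10.1 and 6.22 CPM in control libraries 1, 2 and 3. Its gap of 6.17 was the widest among named members. The homolog of *TSTD1* (KH.C1.852), a thiosulfate sulfurtransferase, had 6.08, 7.93 and 3.82 CPM in *Lhx3/4* libraries 1, 2 and 3, against 1.36, 1.23 and 0.58 CPM in control libraries 1, 2 and 3.

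Among nuclear factors, the homolog of *VGLL2* (KH.L165.4), a cofactor of TEAD transcription factors expressed in vertebrate skeletal muscle, had 15.0, 9.85 and 16.0 CPM in *Lhx3/4* libraries 1, 2 and 3, against 2.35, 2.73 and 0.81 CPM in control libraries 1, 2 and 3. The fold within replicate number 3 was 19.7, against 6.38 and 3.61 for numbers 1 and 2, since control library 3 was low. The homolog of *DMRT2* (KH.C8.583), a DM domain transcription factor, had 2.75, 2.36 and 2.95 CPM in *Lhx3/4* libraries 1, 2 and 3, against 0.48, 0.85 and 0.10 CPM in control libraries 1, 2 and 3. It was near the floor of the rule, and its control values rested on 28, 53 and 7 reads. The homolog of *MLH3* (KH.C4.341), a DNA mismatch repair protein that the study's list counts with transcription factors, had 46.6, 40.6 and 64.3 CPM in *Lhx3/4* libraries 1, 2 and 3, against 13.1, 15.4 and 6.60 CPM in control libraries 1, 2 and 3.

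**Figure D4:**
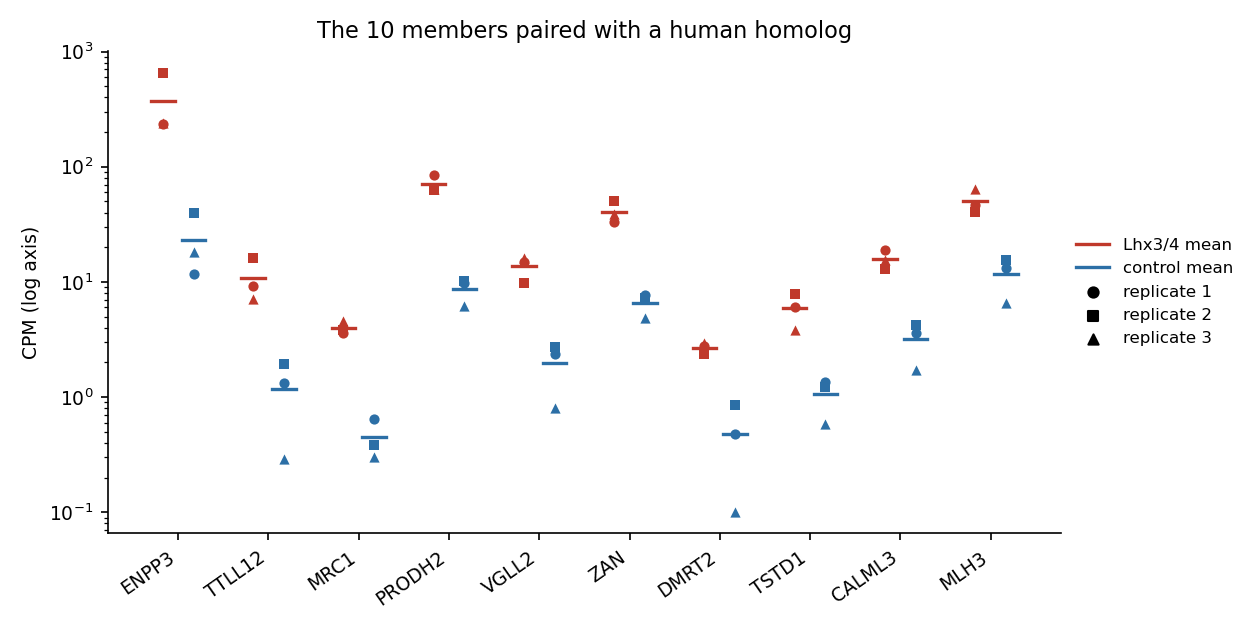
CPM (vertical, log axis) in each library of the 10 members paired with a human homolog, ordered by fold of means, with *Lhx3/4* libraries in red to the left of control libraries in blue, marker shapes for replicate numbers and bars for group means. Control library 3 (blue triangle) is the lowest control in 9 of the 10 genes, the exception being *ENPP3*.

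Control library 3 held the lowest control value in 9 of the 10 named members, and in 75 of all 166 (45.2%), against 38.1% of all genes that met the level conditions. It was also the control with the least *Lhx3/4* (29.2 CPM). Of the 4 ANP markers, *Onecut* (363, 372 and 473 CPM in control libraries 1, 2 and 3), *Tyrp-1* (398, 513 and 592 CPM) and the homolog of *MSX2* (233, 287 and 341 CPM) were highest in control library 3, while *Six3/6* (378, 461 and 420 CPM) was highest in control library 2. The part of these levels in the members' control values was not tested. Of the 10 named members, edgeR called 8 higher, all but *TTLL12* and *DMRT2*, and all 10 were called with the replicate block.

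The study's transcription factor list, used here to place the members among regulators, held 327 genes, of which 294 were tested and 221 met the level conditions. Of these, 4 were members, 1.81% of the 221, against 1.64% of all genes that met the conditions. The leave-out lowers this share, because *Lhx3/4*, *Foxf* and *Nkx6* met every condition and are on the list. With them kept the share would be 7 of 221 (3.17%), against 1.67% of all genes. That count includes *Lhx3/4*, the gene added to the cells, whose rise was set by the design and says nothing about the list. Besides the homologs of *DMRT2* and *MLH3*, the members on the list were KH.C3.443 and KH.C4.236, which have no paired name. KH.C3.443 had 260, 248 and 298 CPM in *Lhx3/4* libraries 1, 2 and 3, against 84.2, 62.1 and 92.0 CPM in control libraries 1, 2 and 3, a fold of 3.38. KH.C4.236 had 64.5, 78.6 and 78.6 CPM in *Lhx3/4* libraries 1, 2 and 3, against 20.2, 26.3 and 27.3 CPM in control libraries 1, 2 and 3, a fold of 3.01. Over the whole list 10 factors rose, 49 fell and 235 did not pass the edgeR test, where 1.85% of all tested genes rose and 2.92% fell. With the replicate block 30 rose and 72 fell, where 4.72% of all tested genes rose and 6.94% fell. The median log2 fold of its tested genes was -0.03, against 0.08 over all tested genes.

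Of the factors left out of the rule, *Foxf* (KH.C3.170), a forkhead factor of the cardiopharyngeal lineage, had 178, 180 and 152 CPM in *Lhx3/4* libraries 1, 2 and 3, against 44.4, 53.5 and 21.2 CPM in control libraries 1, 2 and 3. The list of 26 *Foxf* target genes held no member among the 20 that met the level conditions, too few to read anything from at a share of 1.64% over all such genes. In the edgeR test 1 of its 24 tested genes rose and 2 fell, where 1.85% of all tested genes rose and 2.92% fell. With the replicate block 2 rose and 5 fell, where 4.72% of all tested genes rose and 6.94% fell.

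The list of 1629 genes that the study drew from single CPP cells held 9 members. These were the homologs of *PRODH2*, *ENPP3*, *MRC1*, *ZAN*, *TTLL12*, *VGLL2*, *CALML3* and *TSTD1*, and KH.L83.7, which had 25.0, 23.9 and 23.8 CPM in *Lhx3/4* libraries 1, 2 and 3, against 7.87, 7.23 and 8.51 CPM in control libraries 1, 2 and 3. The 9 were 0.672% of the 1340 listed genes that met the level conditions, against 1.64% of all such genes. As a share of the members the list took 5.42%, against 13.2% of all genes that met the conditions. The listed genes were more abundant in control cells, with a median of 60.9 CPM against 44.1 CPM, and membership fell with control level in both. At 1 to 5 CPM 4 of 60 listed genes were members (6.67%, against 9.85% of all genes in that range), and at 5 to 20 CPM 3 of 213 were (1.41%, against 1.33%). Above 20 CPM 1 of 1066 listed genes was a member, *ENPP3*, which is 0.094%, against 0.325% of all genes in that range. The leave-out lowers the list's shares above 20 CPM and over the whole list. *Foxf*, with a control mean of 39.7 CPM and a gap of 2.84, is on this list and met every condition. Over the whole list 25 genes rose (1.64%, against 1.85% of all tested genes), 49 fell (3.22%, against 2.92%) and 1448 did not pass the edgeR test, so these shares lie near those of all genes. With the block 66 rose and 138 fell, where 4.72% of all tested genes rose and 6.94% fell. Its median log2 fold was 0.06, against 0.08 over all tested genes.

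The lists for morphogenesis held no member. The copies used here, of 58 and 99 genes, are shorter than the lists the study describes. Of the neural tube closure list 26 genes met the level conditions. In the edgeR test 0 of its 52 tested genes rose and 5 fell (0 and 11 with the block), and 0 were higher at an unadjusted p under 0.05 or called higher by DESeq2. Of the list for cell polarity, actin dynamics and adhesion 74 met the conditions, and 1 of 87 rose and 5 fell (3 and 10 with the block). The shares over all tested genes are those given for the *Foxf* targets. At the 1.64% seen over all genes, lists of these sizes would hold very few members, so the absence of members from them is not a result about the lists.

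Members varied more among control libraries than among *Lhx3/4* libraries. The highest *Lhx3/4* library exceeded the lowest by a median of 1.53 times, and the highest control library exceeded the lowest by a median of 2.07 times. Over all genes that met the level conditions these medians were 1.35 and 1.44. The spread was wider in control than in *Lhx3/4* libraries in 118 members (71.1%), against 62.4% of all such genes. Since members were scarcer in control cells, counting error was larger there, and its part in this spread was not tested. Some members were nearly constant among *Lhx3/4* libraries, and some were not. KH.C9.796 had 26.2, 25.9 and 25.9 CPM in *Lhx3/4* libraries 1, 2 and 3, against 6.21, 5.54 and 4.83 CPM in control libraries 1, 2 and 3. KH.C14.149, at the other end, had 11.7, 19.4 and 3.53 CPM in *Lhx3/4* libraries 1, 2 and 3, against 0.89, 0.61 and 0.29 CPM in control libraries 1, 2 and 3, a range of 5.50 times within the *Lhx3/4* group. These 2 genes were chosen after their values were seen, as the ends of this range.

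The replicate number gives a contrast that is balanced against the groups. Deviations from the group mean of log2 CPM, with 0.1 CPM added, correlated between the *Lhx3/4* and control libraries of the same number at 0.31, 0.24 and 0.22 for numbers 1, 2 and 3 over the 166 members. Over the 13641 tested genes the values were 0.59, 0.50 and 0.60. Genes of a library share its depth and preparation, so these values are descriptions. Members were scarcer in control cells than most genes that met the level conditions. The part of counting error in their lower correlations was not tested. In 74 members (44.6%) the highest *Lhx3/4* library and the highest control library carried the same number, against 63.7% of all genes that met the level conditions.

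In a fit of group and replicate number, edgeR's F test called 14 members as differing between replicate numbers (8.43%), against 12.8% of all tested genes. At a given fold the rule favours genes of low spread within groups. Members nevertheless spread more than all genes that met the level conditions. The highest library exceeded the lowest by a median of 1.53 against 1.35 times among *Lhx3/4* libraries. Among control libraries it did so by 2.07 against 1.44 times. Members were also scarcer in control cells than the genes that met the level conditions, whose median control mean was 44.1 CPM. The part of the rule, of the spread or of the low control level in the lower share was not tested. The 14 included *ENPP3*, KH.L102.7, KH.C11.628, KH.C8.724 and KH.C12.408, and their median control mean was 15.8 CPM, against 2.20 CPM over all members. In 12 of the 14 the highest library had the same number in both groups. KH.L110.3 was low in number 2 in both groups, with 22.4, 9.56 and 22.1 CPM in *Lhx3/4* libraries 1, 2 and 3, against 2.06, 0.70 and 1.57 CPM in control libraries 1, 2 and 3. KH.C6.224 was low in number 1 in both groups, with 133, 187 and 179 CPM in *Lhx3/4* libraries 1, 2 and 3, against 4.87, 8.03 and 10.3 CPM in control libraries 1, 2 and 3. Both kept folds of at least 10 within every replicate number.

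In raw CPM, members peaked most often in library 2, and all genes that met the level conditions did so least often there. Among *Lhx3/4* libraries, 69 members were highest in library 2 (41.6%) and 41 in library 1 (24.7%), while over all genes that met the level conditions 26.5% were highest in library 2 and 39.6% in library 1. Among control libraries, 71 members were highest in library 2 (42.8%) and 40 in library 3 (24.1%), against 25.1% and 38.7% of all such genes. *Lhx3/4* itself was highest in library 2 among controls, at 51.3 CPM, but in library 1 among *Lhx3/4* samples, at 681 CPM. Library 2 also had the lowest TMM factor (edgeR's library scaling) of each group, 0.987 among *Lhx3/4* libraries and 0.966 among controls. Its raw CPM values are thus lower, relative to the other libraries of its group, than under TMM scaling. Shares over all genes under that scaling are not given. The difference in peak libraries between members and other genes was not tested, nor was the part of scaling in it.

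**Figure D5:**
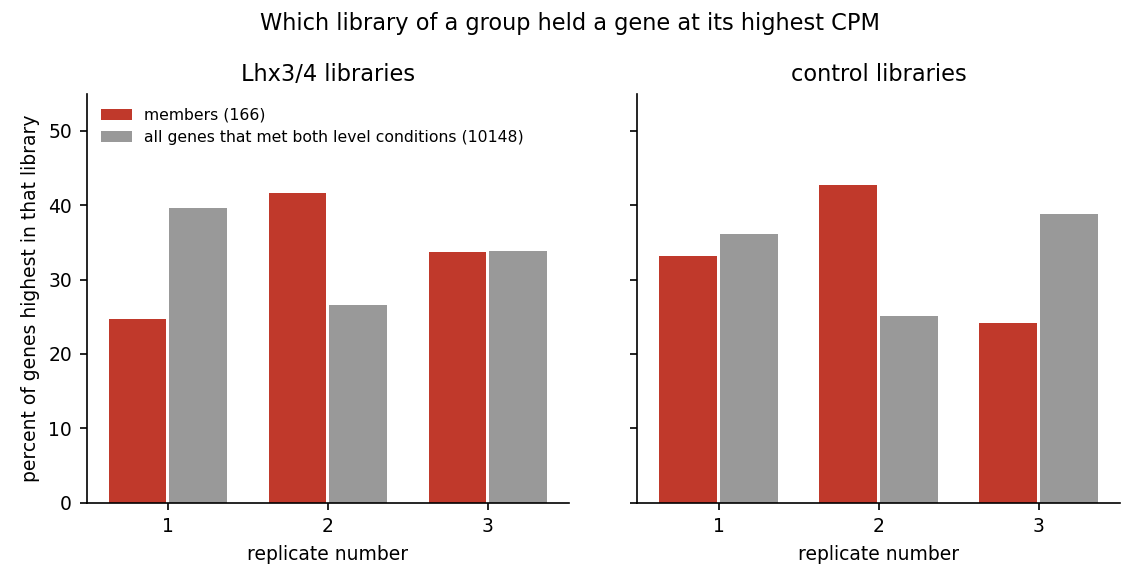
Percent of genes (vertical, from 0) that had their highest CPM in the library of each replicate number (horizontal), for *Lhx3/4* libraries on the left and control libraries on the right, with the 166 members in red and all 10148 genes that met both level conditions in grey. In raw CPM, library 2 takes the largest share of members in both groups, 41.6% and 42.8%, and the smallest share of all genes, 26.5% and 25.1%.

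Folds taken within a replicate number had similar medians over the members but often differed within a member. The median was 6.2 for number 1, 6.6 for number 2 and 7.8 for number 3, and over all genes that met the level conditions the medians were 1.07, 1.06 and 1.08. Within a member the largest of the 3 folds exceeded the smallest by a median of 1.92 times, and by more than 2 times in 77 members. The fold was the largest of the 3 in number 3 for 79 members, in number 1 for 48 and in number 2 for 39. The smallest fold of any member within a number was 2.07. The large folds in number 3 include members such as KH.C14.251, which had 2 reads in control library 3.

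Genes that were nearly silent in control cells form a smaller group. With a control mean of at most 0.3 CPM in place of more than 0.3, 9 genes met the other conditions. The mirrored rule asked for every control library at 2 CPM or more and at least 2 times the highest *Lhx3/4* value. It also asked for a mean above 0.3 CPM over the *Lhx3/4* libraries, so genes nearly silent there are not counted. It was met by 266 genes with none left out, against 169 genes under the rule before the leave-out.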

How the data were processed

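Raw counts per KH2012 gene model, deposited as 1 table per library, were made by the authors with HTSeq from paired-end reads that HISAT2 had placed on the ci3 assembly. The submitters' processing notes also name FastQC and DESeq2. Tool versions and the strand setting were not given in the sources used here, so that overlapping antisense genes may share reads. The labels name a New England Biolabs kit and the paper's methods a Takara SMART-Seq HT kit. HTSeq summary lines, 28.5 to 38.2% of the counts, were left out. A deposited table of the authors' DESeq2 comparison (fold changes and p-values) was not used.

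CPM were computed from the deposited counts and the gene reads of each library (52637768 to 71200276) with Python 3.11.15 and pandas 2.3.3. Tests used R 4.3.3, edgeR 4.0.16 (quasi-likelihood, TMM, group only), limma 3.58.1 and DESeq2 1.42.0. The 13641 genes whose reads summed to 100 or more over all 6 libraries were tested, with Benjamini-Hochberg adjustment over all of them. The fits were tested on simulated data. In the block and in the test of replicate number, libraries of the same number were taken as pairs. The reason lay in these same counts, where deviations of same-numbered libraries correlated at over 0.1 for each of the 3 numbers. Counts with the block thus rest on a pairing read from the data they describe. The labels call the libraries biological replicates, but nothing in the sources ties a number to an electroporation. The p-values therefore reflect only how these libraries vary, and whether that spans separate electroporations is not stated. The main fit has no block.

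The members, lists, tests and alternatives were chosen with earlier results of these data known. Lists are the first columns of the study's supplementary sheets. Named genes are the members paired with a name, the 10 of widest gap, the 10 of highest control mean, and the 5 genes on each side of the ratio of 2. *DMRT2* and *MLH3* were paired through the study's KY numbers. None of the 1239 RefSeq-like IDs (0) and none of the KH IDs (0) matched the reference gene table, so no positions or sequences are given. Alternatives were other scalings, filters and thresholds, DESeq2, the replicate block and leaving out each library.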

Additional observations from a re-analysis of the deposited data

How the results depend on the processing

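Membership rests on thresholds. A ratio of 1.5 gave 306 genes and a ratio of 3 gave 96, while TMM scaling gave 152, DESeq2 size factors 150, a control mean above 1 CPM 130 and an *Lhx3/4* minimum of 5 CPM 135. All of the genes under the last 4 alternatives were members. Leaving out a library gave 191 to 224 genes. The alternatives for lists, for the library of highest level and for leaving out libraries in the replicate number test were chosen after seeing the data. Members on the CPP list were 23 at a ratio of 1.5 and 10 to 14 with a library left out, the 14 without control replicate 3. Members on the transcription factor list were 9 at a ratio of 1.5, 0 at a ratio of 3, and 5 to 6 with a library left out. Under TMM scaling and DESeq2 size factors, 81 and 80 members were highest in *Lhx3/4* library 2 and 73 and 75 in control library 2. The shares over all genes under these scalings are not given.

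DESeq2 called 478 genes higher and 746 lower, and the replicate block 644 and 947, against 252 and 398 in the edgeR fit without the pairing. With a library left out, edgeR called 144 to 304 higher. It called 150 without control replicate 1, 161 without control replicate 2, and 165, 144 and 154 without *Lhx3/4* replicates 1, 2 and 3. It called 247 to 426 lower, with 247 without control replicate 2 and 262 without *Lhx3/4* replicate 3. Members called higher were 107 to 133 with a library left out, and 91 were called whichever library was left out. DESeq2's likelihood ratio test called 3799 genes and 37 members for replicate number. With a library left out, edgeR's F test called 759 to 3705 genes and 8 to 46 members. The members called were 9 without control replicate 1, 8 without *Lhx3/4* replicate 1, 46 without control replicate 2, 46 without *Lhx3/4* replicate 2 and 34 without *Lhx3/4* replicate 3, so the count of 14 depends on single libraries. The causes were not tested. Of 234 comparisons of the 39 named genes with a library left out, 39 lost the edgeR call, in 11 genes. Only 35 of the named genes were called in the main fit and so had a call to lose. None of 429 comparisons reversed direction (0), which the choice of genes with separate groups nearly fixes. Depth limits control values of members with few control reads.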
